A study of Mus musculus with 2 samples.

Results

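Hereditary deafness genes were followed here through the cell types of the mouse cochlea at E16.5 (a stage of embryonic development) and between 2 genotypes. The set holds 39 genes, chosen by symbol from genes in which variants cause hearing loss in people or mice, and all 39 were found among the 32285 genes counted in both libraries. The study set a wild-type (WT) cochlea beside one from Emx2Cre;Ptch1f/f embryos, in which Cre recombinase driven by Emx2 acts on floxed alleles of Ptch1, the receptor that represses Hedgehog signalling until a ligand is bound. Both genotypes were E16.5 embryos on a mixed 129/SvEv and C57BL/6N background. For each genotype 8 cochleae were pooled into a single 10X Chromium 3′ library, in which every captured RNA molecule is counted once by a unique molecular identifier (UMI). With 1 library per genotype there was no replicate check and no test. All intervals given are exact 95% intervals that cover counting error only, and they say nothing of the spread between embryos. Emx2 is used by several tissues, and which cells had recombined was not measured.

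Hearing rests on hair cells, whose actin-filled stereocilia open a transduction channel when they bend and whose ribbon synapses then release glutamate onto spiral ganglion neurons. The fluid that drives the channel is made by the stria vascularis, where marginal cells of the epithelium sit against intermediate cells, which are melanocytes. Deafness genes fall into groups by the step they serve: the bundle and its channel, the synapse, the tight junctions that keep the fluids apart, the cytoskeleton, growth factor signalling, and general upkeep of the cell. At E16.5 the first hair cells of the cochlea are differentiating and hearing has not begun.

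The wild-type library held 6500 barcodes with a median of 7333 UMIs, and the mutant library held 12326 with a median of 6524.5. After filters and removal of likely doublets 6108 and 8670 barcodes were kept, and 17 kept barcode sequences occurred in both libraries. Cell types were named from fixed marker genes after clustering without the 39 genes. Shallow clusters of 198 and 484 mutant barcodes, with 2 and 6 wild-type ones, scored best for epithelial markers. They stayed unnamed, at median depths of 1747.5 and 1555.5 UMIs, and were left out of the epithelium. The epithelium held 1402 wild-type and 1344 mutant barcodes. Within it the hair cell-like cluster held 137 wild-type barcodes and 3 mutant ones, the marginal cell-like cluster 87 and 9, the lateral duct floor-like cluster 206 and 1, and the cochlear roof-like cluster 13 and 353. All 11 hair cell markers reached 10 CPM (counts per 1000000 UMIs) in the wild-type hair cell-like sum, and so did all 7 melanocyte markers in the wild-type melanocyte-like sum. In the wild-type marginal cell-like sum 5 of the 9 marginal cell markers did, adding up to 209 CPM, and Bsnd was at 0. All 6 markers of the cochlear roof did so there too, adding up to 339 CPM, so its name is not sure. Other epithelial sums of wild type were not clean either. In the hair cell-like, prosensory or supporting cell-like and lateral duct floor-like sums, 7 of 8 medial duct floor markers reached 10 CPM. Of the 10 mesenchyme markers 10, 9 and 9 did so. An unnamed group of 60 wild-type barcodes led by Enpep and the marginal cell markers Esrrb and Kcne1 was left out because melanocyte genes such as Dct and Pmel led it as well. In the macrophage-like cluster genes of other myeloid cells, S100a8 and S100a9, were among the leading genes. Ptch1 was counted at 30.5 CPM in the wild-type epithelium and at 196 CPM in the mutant one, and tags from the 3′ end do not check the deletion.

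RNA of other lineages was unequal between the epithelia, and its part in the results below was not tested. Markers of mesenchyme summed to 1379 CPM in the wild-type epithelium, with 10 of 10 at 10 CPM or more, and to 166 CPM in the mutant one, with 3 of 10. Neuron markers summed to 462 and 32.6 CPM (6 and 1 of 8), macrophage markers to 81.6 and 4.56 CPM (5 and 0 of 8), and haemoglobin made up 0.5002% and 0.0220% of the epithelial UMIs. Of the defining markers of these lineages, none was at 0 in the wild-type epithelium. By a limit of 5 UMIs of other lineages per 10000, mixed barcodes made up 90.3% of the epithelium in wild type and 55.5% in the mutant. The genes counted for this limit were those of mesenchyme, endothelium, macrophages, melanocytes and epithelium. RNA of neurons, glia and erythroid cells was not counted, so leaving out mixed barcodes does not remove it by rule. An unnamed group of 438 wild-type epithelial barcodes carried most of the haemoglobin, which was 1.74% of its UMIs, and it was not used to place genes.

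In wild type, 37 of the 39 genes had at least 10 UMIs over the named cell types and could be placed. The exceptions were Strc, which encodes stereocilin of the links between stereocilia, with 5 UMIs, and Ush1g, a scaffold at the tip-link anchor, with 3. The wild-type cochlear roof-like type, with 13 barcodes, was left out because at least 30 were required. A gene was placed in the type with its highest CPM among the rest. Its place was called separated where the lower bound there lay above the upper bound of every other type placed. Hair cell-like barcodes gave the highest CPM for 11 of the 37 genes, beside 5.62% of all 17006 genes placed in the same way. Any epithelial type did so for 23, beside 32.9% of all genes. The place was separated for 13 of the 37, beside 20.1% of all genes, and for 4 of the 11 in hair cell-like barcodes, beside 0.947%. Levels are CPM of summed UMIs with 1 tag per molecule, and only levels of a single gene are compared between types.

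**Figure D1:**
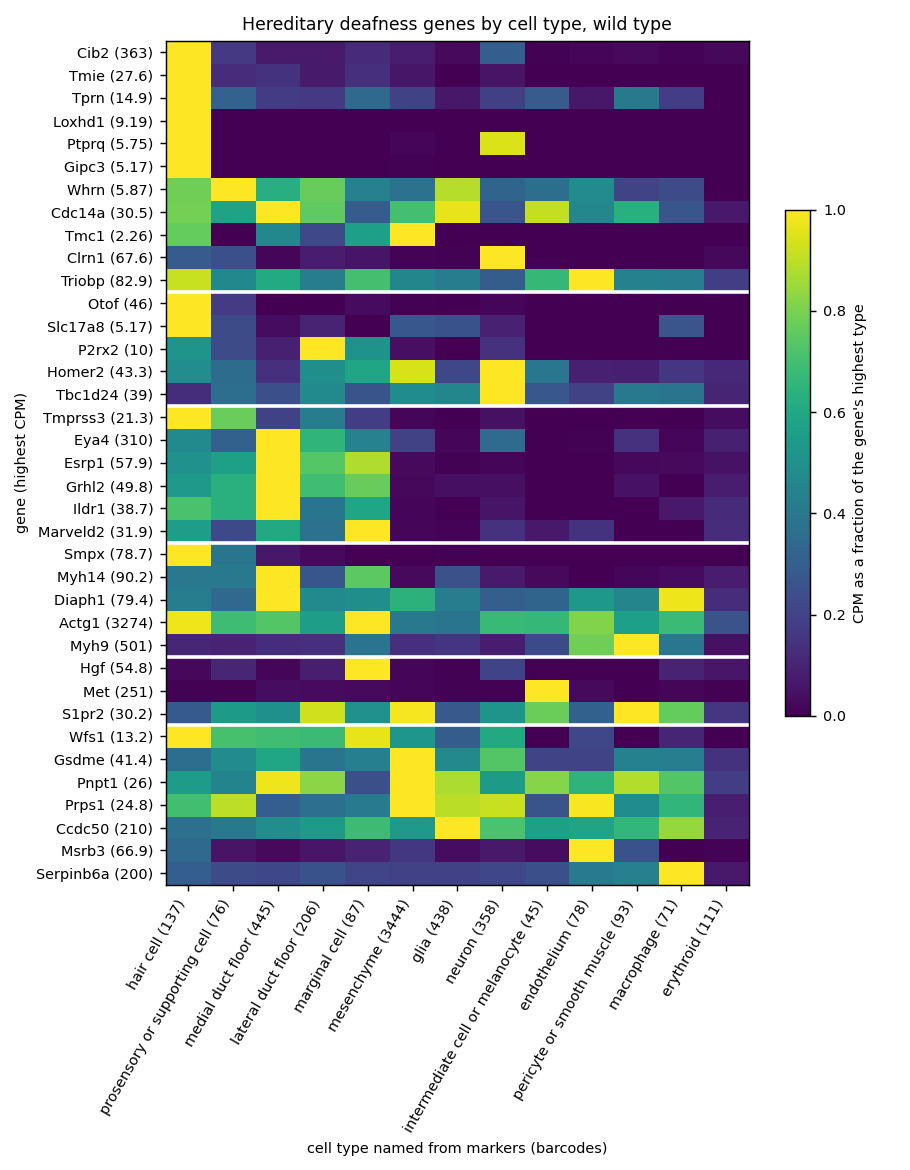
Level of each deafness gene (rows, grouped by role with white lines between roles) in each wild-type cell type (columns, with the number of barcodes), as a fraction of the gene's highest CPM, which stands beside its symbol. Cib2, Tmie, Otof and Smpx are brightest in the hair cell column, Met only in the melanocyte column and Hgf in the marginal cell column.

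Among the genes of the hair bundle and its channel, Cib2 and Tmie were separated in hair cell-like barcodes. Cib2 encodes a calcium-binding partner of the transduction channel and lies at chr9:54544794-54560218 (GRCm38, minus strand). It had 631 UMIs there, or 363 CPM (335 to 392), and its next type was the neuron with 109 CPM (99.1 to 119). Mesenchyme stood at 28.5 CPM. A UMI of Cib2 was seen in 74.5% of hair cell-like barcodes and in 19.5% of mesenchymal ones, whose median depths were 9396 and 7110 UMIs. After every barcode was thinned to 2000 UMIs the shares were 36.5% and 5.78%. The gene was thus detected in most hair cell-like barcodes, over a low level in many other types.

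Tmie, a membrane protein that the channel needs to work, lies at chr9:110865711-110880113 (minus strand). It had 48 UMIs in hair cell-like barcodes, or 27.6 CPM (20.3 to 36.6), and 4.05 CPM (2.57 to 6.08) in the medial duct floor that came next. The share of barcodes with a UMI was 20.4% against 1.28% in mesenchyme, and 4.38% against 0.174% when thinned.

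The channel gene Tmc1 was placed elsewhere. Its 74 UMIs over the wild-type types lay mainly in mesenchyme, with 63 UMIs at 2.26 CPM (1.74 to 2.89), and only 3 came from hair cell-like barcodes, at 1.72 CPM (0.355 to 5.04). The intervals overlap, so the order of those types was not resolved at this depth. In the mutant, too, mesenchyme held 66 UMIs of Tmc1, at 1.32 CPM (1.02 to 1.67), and no other type with at least 30 barcodes reached that level.

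Of the remaining bundle genes, 4 were highest in hair cell-like barcodes without being separated. All 16 placed UMIs of Loxhd1, a protein of the stereocilium membrane, came from there, at 9.19 CPM (5.25 to 14.9). Gipc3, an adaptor protein with a PDZ domain, had 9 of its 10 UMIs there. Tprn, or taperin, found at the base of stereocilia, stood at 14.9 CPM (9.76 to 21.9) with pericytes next at 6.05 CPM. Ptprq, a phosphatase of the shaft connectors, had 10 UMIs at 5.75 CPM in hair cell-like barcodes and 23 UMIs at 5.44 CPM in neurons, so those types did not differ beyond counting error. These are small counts, and Loxhd1 and Gipc3 missed separation because the smaller types are too shallow to bound a count of 0.

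Clrn1, which encodes clarin 1 of Usher syndrome, was separated in neurons and not in hair cells. It had 286 UMIs and 67.6 CPM (60.03 to 76.0) in neurons, and hair cell-like barcodes followed with 19.5 CPM (13.5 to 27.3). A UMI was seen in 35.8% of neuronal barcodes, at a median depth of 5701 UMIs, and in 0.610% of mesenchymal ones, or 9.22% and 0.232% when thinned. Mutant neurons gave a similar level of 59.6 CPM (48.4 to 72.8) from 97 UMIs in 68 barcodes.

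Whrn, Cdc14a and Triobp were broad. Whrn, or whirlin, the scaffold at stereocilium tips, ranked first in prosensory or supporting cell-like barcodes on only 5 UMIs, at 5.87 CPM (1.91 to 13.7), with glia next at 5.22 CPM. Cdc14a, a phosphatase, reached 30.5 CPM in the medial duct floor and 29.4 CPM in glia. Triobp, which bundles actin in the stereocilium rootlet, reached 82.9 CPM (66.5 to 102) in endothelium and 75.8 CPM (63.5 to 89.9) in hair cell-like barcodes. None of these orders was resolved by the intervals.

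In the synaptic group Otof was separated in hair cell-like barcodes. It encodes otoferlin, the calcium sensor of the ribbon synapse, and lies at chr5:30367062-30461932 (minus strand). It had 80 UMIs at 46.0 CPM (36.4 to 57.2) in hair cell-like barcodes, 8.22 CPM (3.30 to 16.9) in prosensory or supporting cell-like ones and 0.215 CPM in mesenchyme. A UMI was seen in 20.4% of hair cell-like and 0.174% of mesenchymal barcodes, and in 5.11% and 0.0290% when thinned. Its transcripts were thus present at this stage, ahead of hearing.

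Slc17a8, the vesicular glutamate transporter of inner hair cells, ranked first in hair cell-like barcodes on 9 UMIs from 2 barcodes, at 5.17 CPM (2.36 to 9.82). Mesenchyme held 39 UMIs of it at 1.40 CPM. Tbc1d24, a regulator of vesicle traffic, was separated in neurons with 165 UMIs at 39.02 CPM (33.3 to 45.5) over 19.0 CPM (17.4 to 20.7) in mesenchyme. Its share of barcodes with a UMI was 27.4% in neurons and 13.6% in mesenchyme, or 6.70% and 4.04% when thinned. Homer2, a scaffold of receptor signalling, was near level between neurons at 43.3 CPM (37.2 to 50.03) and mesenchyme at 40.7 CPM (38.4 to 43.2). P2rx2, an ATP-gated channel, was highest in the lateral duct floor at 10.0 CPM (6.12 to 15.5), with hair cell-like barcodes next at 5.17 CPM.

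Genes of junctions and of epithelial identity were highest across the duct epithelium. Of these 6 genes 4 were placed in the medial duct floor, the region of Kolliker's organ. In all, 7 of the 37 placed genes were highest there, beside 6.58% of all genes. Eya4, a transcriptional coactivator, was the separated one, with 1762 UMIs at 310 CPM (296 to 325) over 202 CPM (183 to 223) in the lateral duct floor. A UMI of Eya4 was seen in 85.6% of medial barcodes, at a median depth of 8785 UMIs, and in 29.5% of mesenchymal ones, or 44.3% and 11.1% when thinned. Without mixed barcodes its place was no longer separated, at 237 CPM against 222 CPM in hair cell-like barcodes.

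Grhl2, a transcription factor that keeps epithelia epithelial, reached 49.8 CPM (44.2 to 56.0) in the medial duct floor. Esrp1, a splicing factor of epithelial cells, reached 57.9 CPM (51.8 to 64.6) there. For both the marginal cell-like type came next, at 38.2 and 51.0 CPM, and mesenchyme stood at 1.00 and 1.40 CPM. Ildr1 and Marveld2, proteins of the junctions where 3 cells meet, stood at 38.7 CPM in the medial duct floor and 31.9 CPM in marginal cell-like barcodes. The 13 wild-type cochlear roof-like barcodes, too few to be placed, stood higher for Esrp1, at 96.9 CPM (51.6 to 166). They did so for Ildr1 at 59.7 CPM (25.8 to 118) and Grhl2 at 52.2 CPM (21.0 to 108). These intervals overlap those of the medial duct floor, so the orders were not resolved. Tmprss3, a membrane protease, was highest in hair cell-like barcodes at 21.3 CPM (14.97 to 29.3), and prosensory or supporting cell-like barcodes were close at 16.4 CPM (8.98 to 27.6).

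In the actin and myosin group Smpx was separated in hair cell-like barcodes and Myh9 in pericytes. Smpx is a small protein of cells under mechanical load and lies at chrX:157698910-157752591 (plus strand). It had 137 UMIs at 78.7 CPM (66.1 to 93.1) in hair cell-like barcodes, 30.5 CPM (19.9 to 44.7) in prosensory or supporting cell-like ones and 0.108 CPM in mesenchyme. A UMI was seen in 37.2% of hair cell-like and 0.0871% of mesenchymal barcodes. The thinned shares were 10.9% and 0%, and 0 of 3444 barcodes allows a share of up to 0.107%.

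Cib2, Tmie, Otof and Smpx were separated in hair cell-like barcodes and lower in the mutant epithelium, as given further on, and the upstream sequences of Cib2 and Smpx are shown for that reason. That of Tmie is not shown because it overlaps an exon of another gene, Als2cl, and Otof had no entry. They are from RefSeq (GRCm38.p6), 5′ to 3′ on the gene's strand, and end before the first base of any annotated transcript.
Cib2, chr9:54560219-54560440, minus strand: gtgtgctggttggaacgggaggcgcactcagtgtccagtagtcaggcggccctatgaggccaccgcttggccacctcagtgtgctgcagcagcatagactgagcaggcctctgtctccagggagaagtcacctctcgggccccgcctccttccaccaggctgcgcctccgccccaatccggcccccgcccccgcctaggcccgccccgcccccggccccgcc
Smpx, chrX:157698723-157698909, plus strand: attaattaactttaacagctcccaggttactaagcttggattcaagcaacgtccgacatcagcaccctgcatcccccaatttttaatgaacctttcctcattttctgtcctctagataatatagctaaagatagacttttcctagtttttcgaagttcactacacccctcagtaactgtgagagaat
Neither stretch holds CAGCTG, a form of the E-box read by basic helix-loop-helix factors such as Atoh1, so no letters are in capitals. The 31 deafness genes with an entry have 42 windows of 250 bases before a start. CAGCTG was in 3 of these, or 7.14% (Homer2, Serpinb6a and Tmie), beside 13.0% of all 32851 windows of that length, both strands read. CAGATG was in 5, or 11.9%, beside 14.4%, and AACCNGTT, a form of the Grhl motif, in 1, or 2.38%, beside 1.79%. The motifs and the genes shown were chosen after the levels were seen, and a match or its absence is a description of these letters only.

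Myh9, a nonmuscle myosin heavy chain, reached 501 CPM (454 to 551) in pericytes or smooth muscle and 392 CPM (355 to 432) in endothelium, against 67.5 CPM in mesenchyme. Its share of barcodes with a UMI was 92.5% in pericytes, at a median depth of 7968 UMIs, and 34.5% in mesenchyme, or 57.0% and 11.1% when thinned. Without mixed barcodes pericytes had too few barcodes to be placed, since 91 of 93 were mixed. No lineage counted for that limit was set as their own, so mesenchyme genes counted against them as well. Endothelium was then the separated type at 389 CPM. Its relative Myh14 was placed in the medial duct floor at 90.2 CPM (82.5 to 98.3). The 13 wild-type cochlear roof-like barcodes, too few to be placed, stood at 119 CPM (68.2 to 194) for Myh14. Diaph1, which nucleates actin filaments, reached 79.4 CPM in the medial duct floor and 77.5 CPM in macrophage-like barcodes. Actg1, the gamma actin gene, was counted at 832 CPM or more in every type, with 3274 CPM in marginal cell-like and 3185 CPM in hair cell-like barcodes, and reads from its near-identical copies could share in its count.

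The ligand Hgf and its receptor Met, both deafness genes, were highest in different types, Hgf in the marginal cell-like cluster, which held roof markers as well, and Met in melanocyte-like barcodes. Hgf encodes hepatocyte growth factor and lies at chr5:16553495-16620152 (plus strand). Its wild-type level in marginal cell-like barcodes was 54.8 CPM (39.7 to 73.8) from 43 UMIs, and neurons followed at 11.1 CPM (8.17 to 14.8). No UMI of Hgf came from melanocyte-like barcodes, which allows up to 7.86 CPM. A UMI was seen in 27.6% of marginal cell-like barcodes, at a median depth of 6126 UMIs, and in 0.610% of mesenchymal ones, or 5.75% and 0.145% when thinned. The unnamed wild-type epithelium held a further 61 UMIs at 14.2 CPM. Without mixed barcodes the marginal cell-like type could not be placed, and Hgf was then highest in neurons at 12.0 CPM (8.07 to 17.3), without being separated.

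Met, at chr6:17463800-17573980 (plus strand), had 118 UMIs at 251 CPM (208 to 301) in the 45 wild-type melanocyte-like barcodes. The medial duct floor came next at 8.45 CPM (6.23 to 11.2), and marginal cell-like barcodes stood at 6.37 CPM. A UMI was seen in 82.2% of melanocyte-like barcodes, at a median depth of 9538 UMIs, and in 2.56% of mesenchymal ones, or 40.0% and 0.494% when thinned. Without mixed barcodes Met stood at 244 CPM in melanocyte-like barcodes and was again separated.

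In the mutant those types held few barcodes and were not placed. In 23 mutant melanocyte-like barcodes Met had 66 UMIs at 198 CPM (153 to 251), with a UMI in 18 of them. In 9 mutant marginal cell-like barcodes Hgf had 28 UMIs at 89.2 CPM (59.3 to 129), with a UMI in 6. The Met intervals of both libraries overlap, and so do those of Hgf. The number of barcodes in both types was lower in the mutant library.

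**Figure D2:**
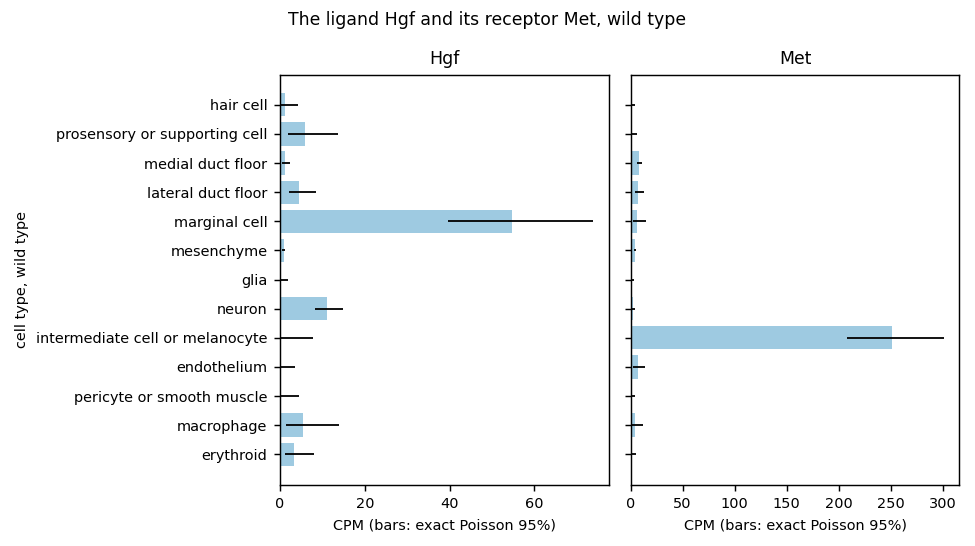
Levels of Hgf (left) and Met (right) in CPM for each wild-type cell type, with exact Poisson 95% intervals as black lines. Hgf is highest in marginal cell-like barcodes at 54.8 CPM and Met in melanocyte-like barcodes at 251 CPM, with the other types far lower in both panels.

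S1pr2, a receptor for sphingosine 1-phosphate, was the remaining signalling gene. Its level was 30.2 CPM (19.6 to 44.6) in pericytes and 29.8 CPM (27.8 to 31.9) in mesenchyme, so the order was not resolved.

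Of the 7 genes of cell maintenance, 3 were separated and each in a different type outside the epithelium. Serpinb6a, a protease inhibitor, was separated in macrophage-like barcodes at 200 CPM (169 to 235) over 87.1 CPM (68.1 to 110) in pericytes. Its share of barcodes with a UMI there was 60.6%, at a median depth of 9894 UMIs, against 24.5% in mesenchyme, or 26.8% and 7.26% when thinned. Msrb3, a methionine sulfoxide reductase, was separated in endothelium at 66.9 CPM (52.3 to 84.4), and hair cell-like barcodes came next at 23.0 CPM (16.4 to 31.3). A UMI of Msrb3 was seen in 42.3% of endothelial barcodes, at a median depth of 10477.5 UMIs, and in 7.96% of mesenchymal ones, or 12.8% and 2.18% when thinned.

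Gsdme, a pore-forming gasdermin, was separated in mesenchyme at 41.4 CPM (39.1 to 43.9) over 30.3 CPM (25.3 to 36.0) in neurons. Its shares of barcodes with a UMI were 25.9% in mesenchyme and 24.3% in neurons, or 7.14% and 5.03% when thinned, so the separation was small. Without mixed barcodes it was lost. Prps1, an enzyme of nucleotide synthesis, and Pnpt1, an RNA-processing enzyme of mitochondria, were near level over most types, with highest values of 24.8 and 26.0 CPM in mesenchyme. Ccdc50, a signalling adaptor, was highest in glia at 210 CPM (194 to 227). Wfs1, or wolframin of the endoplasmic reticulum, stood at 13.2 CPM in hair cell-like and 12.7 CPM in marginal cell-like barcodes, which their intervals do not tell apart.

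Without mixed barcodes 36 genes could be placed in wild type, 14 of them in hair cell-like barcodes, beside 11.8% of all genes. Cib2, Tmie, Otof and Smpx stood at 504, 49.7, 91.6 and 116 CPM there, on 30 barcodes, and were separated from the types still placed. The prosensory or supporting, lateral duct floor, marginal cell-like, pericyte and erythroid types had too few barcodes left to be placed. The medial duct floor was the only other epithelial type left. For Otof and Smpx the prosensory or supporting type had come next, so that comparison was not repeated.

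The cells lying behind the epithelial comparison between genotypes were not alike, and a summed level cannot tell fewer cells of a type from less RNA per cell. In the summed epithelium 37 of the 39 genes reached 10 UMIs with the libraries added up. By the log2 ratio of mutant over wild type with 1 CPM added, 1 gene was higher in the mutant by 2-fold or more, beside 2.5% of all 16150 genes with that many UMIs. Lower by 2-fold or more were 6 genes, beside 5.88% of all genes. The median log2 ratio of the 37 was −0.10, against 0.05 over all genes. Hair bundle genes had a median of −0.54 over the 11 with enough UMIs, with 3 lower and 1 higher. The 6 genes of junctions and epithelial identity had a median of 0.40, with 1 lower, and the 7 of cell maintenance 0.04, with none at 2-fold in either direction. Strc had 4 wild-type and 0 mutant epithelial UMIs, and Ush1g had 4 in each library.

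**Figure D3:**
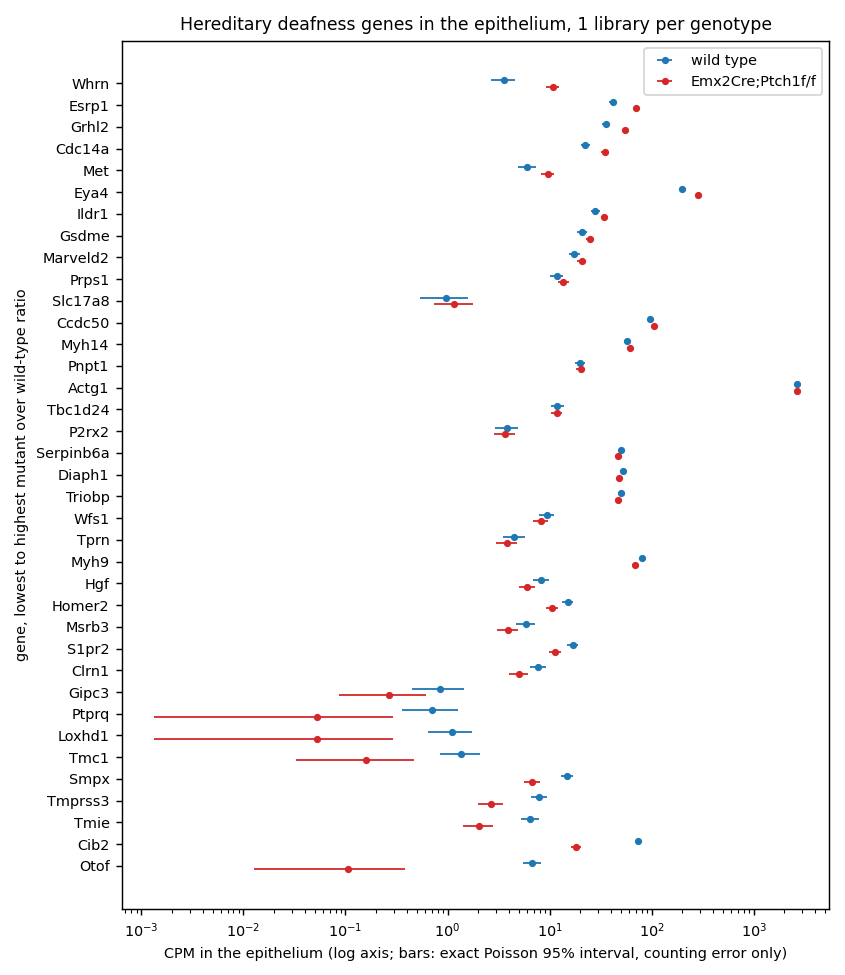
CPM of each deafness gene in the summed epithelium of the wild-type (blue) and mutant (red) library on a log axis, with exact Poisson 95% intervals as bars, ordered by the ratio. Whrn at the top lies at 3.55 CPM (wild type) and 10.7 CPM (mutant), and Otof at the bottom lies at 6.78 and 0.106 CPM, while most genes lie close together.

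The lower genes were led by those of hair cells. Otof had 105 wild-type UMIs, or 6.78 CPM (5.54 to 8.20), and 2 mutant UMIs, or 0.106 CPM (0.0129 to 0.383), a mutant to wild-type ratio between 0.00187 and 0.0580. Cib2 stood at 73.9 CPM (69.7 to 78.3) and 18.3 CPM (16.4 to 20.3), with a ratio between 0.218 and 0.279. Tmie stood at 6.45 CPM (5.25 to 7.85) and 2.02 CPM (1.43 to 2.77). The wild-type and mutant intervals of these genes lie apart.

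Tmprss3 was at 7.87 CPM (6.54 to 9.40) in wild type and 2.65 CPM (1.97 to 3.50) in the mutant. Smpx was at 14.8 CPM (13.0 to 16.9) and 6.79 CPM (5.67 to 8.07). Tmc1 was the sixth, on only 21 and 3 UMIs, at 1.36 and 0.159 CPM. Of the 6 lower genes 5 were among the 11 highest in wild-type hair cell-like barcodes, which is 83.3% of the former and 45.5% of the latter, and Tmc1 was not. Both lists include wild-type epithelial counts and are not independent.

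Hair cell-like barcodes held 11.2% of the wild-type epithelial UMIs. They held 76.2% of those of Otof, 59.6% of Smpx, 55.1% of Cib2, 48.0% of Tmie and 30.3% of Tmprss3. The mutant library had 3 such barcodes with 17425 UMIs in all. They lay in a sub-cluster with 34 wild-type barcodes, while 103 wild-type ones lay in another with 0 mutant barcodes. The cells compared thus differed. Cib2 had 15 UMIs there at 861 CPM (482 to 1420) and Tmie 4 at 230 CPM (62.5 to 588), each from 2 of the barcodes. Both intervals lie above those of all wild-type hair cell-like barcodes, for these 3 barcodes only. The wild-type intervals without mixed barcodes were 451 to 562 CPM for Cib2 and 34.0 to 70.1 CPM for Tmie. Those overlap the mutant ones, so no difference was resolved. In the 3 mutant barcodes Smpx had 1 UMI at 57.4 CPM (1.45 to 320), and Otof had 0, which allows up to 212 CPM. The bounds of both hold the wild-type level, so no difference in Smpx or Otof was detectable at this depth.

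With hair cell-like barcodes left out of both libraries the median log2 ratio was 0.00 over 34 genes, and 2 were at least 2-fold lower, beside 5.7% of all genes. Smpx was then level, at 6.76 CPM (5.46 to 8.28) in wild type and 6.75 CPM (5.62 to 8.03) in the mutant. Cib2 was still lower, at 37.4 CPM (34.2 to 40.7) and 17.5 CPM (15.6 to 19.5), and so was Otof, at 1.82 and 0.106 CPM from 25 and 2 UMIs. Tmie stood at 3.78 and 1.81 CPM and Tmprss3 at 6.18 and 2.66 CPM, both under 2-fold by the ratio with 1 CPM added. Whrn was the 1 gene at least 2-fold higher, beside 2.48% of all genes. Leaving out mixed barcodes as well moved these values: Cib2 stood at 27.9 CPM (wild type, 37 UMIs) and 25.3 CPM (mutant), and Otof had 0 and 1 UMIs. Of 31 genes 1 was then lower, Hgf, beside 5.51% of all genes, and 4 were higher, Whrn, Clrn1, Cdc14a and Smpx, beside 6.2%.

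**Figure D4:**
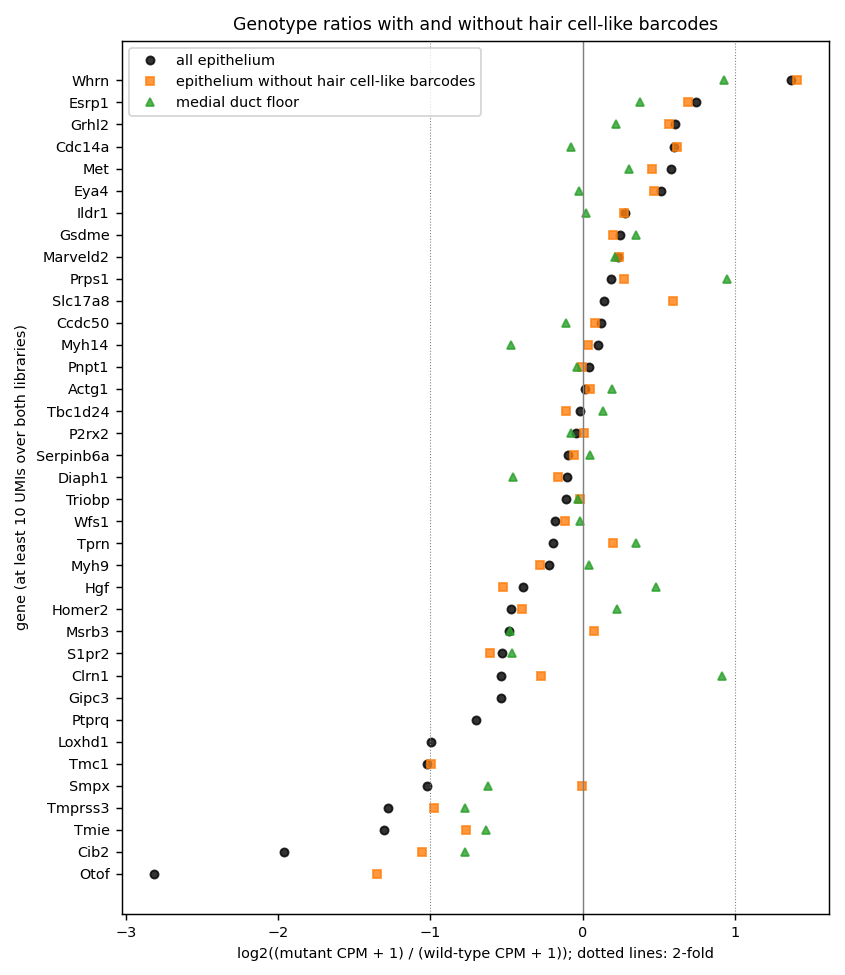
Log2 ratio of mutant over wild-type CPM, with 1 CPM added, for each deafness gene in the whole epithelium (black circles), the epithelium without hair cell-like barcodes (orange squares) and the medial duct floor (green triangles). Dotted lines mark 2-fold, and Smpx moves from −1.02 to −0.00 once hair cell-like barcodes are left out, while Cib2 and Otof remain beyond −1.

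Within other types Cib2 went both ways. The medial duct floor stood at 26.2 CPM (22.2 to 30.8) in wild type and 14.9 CPM (12.6 to 17.5) in the mutant, neurons at 109 CPM (99.1 to 119) and 84.2 CPM (70.7 to 99.6), and mesenchyme at 28.5 CPM (26.6 to 30.6) and 24.0 CPM (22.7 to 25.4). With mixed barcodes left out, the wild-type medial duct floor stood at 10.6 CPM (4.27 to 21.9) on 7 UMIs. That interval holds the mutant level of all barcodes there, so the lower mutant level was not resolved. Glia stood at 8.81 and 12.4 CPM and macrophage-like barcodes at 4.08 and 15.1 CPM, the latter on 3 and 25 UMIs. In endothelium Cib2 was the 1 of 18 genes lower by 2-fold or more, beside 2.72% of all genes. It was not among the lower genes there without mixed barcodes. Cib2 was also lower by 2-fold or more in prosensory or supporting cell-like barcodes, which were hardly the same cells in both libraries.

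Detection in the summed epithelium was lower in the mutant for Cib2, Otof, Tmie and Tmprss3, while the thinned shares of Smpx were near level. Tmie was seen in 5.49% and 2.53% of epithelial barcodes, with thinned shares of 0.927% and 0.354%. Epithelial barcodes with a UMI of Cib2 made up 30.9% in wild type and 16.4% in the mutant, beside 19.5% and 17.6% in mesenchyme, and the thinned shares were 8.63% and 3.37% in the epithelium and 5.78% and 5.00% in mesenchyme. The mutant share of Cib2 was thus no higher than in mesenchyme. Mesenchyme does not give a background for this gene, since its 24.0 CPM (22.7 to 25.4) in the mutant stood above the 2.66 CPM (1.07 to 5.48) of endothelium. Mutant prosensory or supporting cell-like barcodes held 132 UMIs of Cib2 at 28.5 CPM (23.9 to 33.8). Otof was seen in 3.64% and 0.149% of epithelial barcodes, beside 0.174% and 0.106% in mesenchyme, and the mutant epithelial share rests on 2 UMIs. Tmprss3 was seen in 6.49% and 3.12%, beside 0.203% and 0.0529% in mesenchyme, with thinned epithelial shares of 1.21% and 0.354%. Smpx was seen in 8.06% and 6.77%, beside 0.0871% and 0.123%, with thinned shares of 1.85% and 1.68%. Both remained above the mesenchymal share in the mutant.

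Whrn, at chr4:63414910-63495991 (minus strand), was the gene higher in the mutant epithelium. It had 55 UMIs at 3.55 CPM (2.67 to 4.62) in wild type and 202 at 10.7 CPM (9.29 to 12.3) in the mutant, a ratio between 2.23 and 4.15. Its share of epithelial barcodes with a UMI was 3.78% in wild type and 11.2% in the mutant, beside 1.77% and 3.37% in mesenchyme. Epithelial barcodes had a median depth of 8052.5 (wild type) and 8444.5 UMIs (mutant), mesenchymal ones of 7110 and 8456, and the thinned shares were 0.642% and 1.51% in the epithelium and 0.436% and 0.778% in mesenchyme. Its CPM in mesenchyme was 2.19 (1.67 to 2.81) and 4.09 (3.55 to 4.69), and in the medial duct floor 3.70 (2.29 to 5.65) and 7.95 (6.31 to 9.88). Whrn was thus higher in the mutant library in each of these, inside and outside the epithelium. In the medial duct floor without mixed barcodes it stood at 6.07 CPM (1.65 to 15.6) and 8.06 CPM (4.61 to 13.1). Those rest on 4 and 16 UMIs, and their intervals overlap.

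The genes of epithelial identity were higher in the mutant by less than 2-fold. Esrp1 stood at 41.8 CPM (38.6 to 45.1) and 70.7 CPM (67.0 to 74.6), Grhl2 at 35.5 CPM (32.6 to 38.6) and 54.5 CPM (51.2 to 57.9), and Eya4 at 199 CPM (192 to 206) and 285 CPM (277 to 292). The summed epithelial markers moved the same way, from 4163 CPM in wild type to 6108 CPM in the mutant. Eya4 was level within the medial duct floor, at 310 CPM (296 to 325) and 305 CPM (294 to 316). Esrp1 was higher in the mutant there too, at 57.9 CPM (51.8 to 64.6) and 75.5 CPM (70.2 to 81.0), with the intervals apart. Grhl2 stood at 49.8 CPM (44.2 to 56.0) and 58.1 CPM (53.5 to 63.0), with overlapping intervals. The higher Esrp1 level there did not hold once mixed barcodes were left out. Esrp1 then stood at 79.0 CPM (59.0 to 104) in wild type and 69.1 CPM (58.0 to 81.6) in the mutant. Grhl2 stood at 56.2 and 53.9 CPM and Eya4 at 237 and 279 CPM, and the intervals overlapped for each gene.

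Within the medial duct floor 31 genes had enough UMIs, their median log2 ratio was 0.02, and none was 2-fold apart, beside 3.94% of all genes higher and 1.95% lower. The log2 ratios ran from −0.78 for Cib2 to 0.95 for Prps1. The cells compared differed: 249 of the 445 wild-type barcodes lay in a sub-cluster with 9 mutant ones, while most of the 612 mutant barcodes lay in 3 others. The proliferation gene Mki67 stood at 68.7 CPM in wild type and 236 CPM in the mutant there.

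Prosensory or supporting cell-like barcodes were hardly the same cells in both libraries, since 68 of the 76 wild-type ones lay in a sub-cluster with 0 mutant barcodes, so no count of genes is given for them. Eya4 stood at 96.2 CPM (76.5 to 119) and 345 CPM (329 to 363) there, and Cdc14a at 17.6 CPM (9.85 to 29.0) and 62.6 CPM (55.6 to 70.3). Emx2 itself stood at 8.22 and 93.1 CPM in them, and genotype and sub-cluster cannot be told apart.

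Classes outside the epithelium were compared in the same way. In mesenchyme 34 had enough UMIs, their median log2 ratio was −0.04, and none was 2-fold apart, beside 0.404% of all genes higher and 0.915% lower. Gsdme was level there, at 41.4 CPM (39.1 to 43.9) and 41.1 CPM (39.4 to 42.9). In glia none of 21 was 2-fold apart, beside 2.09% of all genes higher and 1.52% lower. In neurons Tmie was higher, on 6 and 12 UMIs, and Marveld2, Myh14 and Msrb3 were lower, beside 2.4% and 11.6% of all genes. All 3 lower ones had 4 or fewer mutant UMIs, and none of the 68 mutant neuronal barcodes was mixed, against 67.3% of the 358 wild-type ones. In macrophage-like barcodes 3 of 18 were higher, Cib2, Eya4 and Smpx, beside 7.71% of all genes, and 0 were lower, beside 3.64%. With mixed barcodes left out 3 of 18 were higher there, Cib2, Homer2 and Smpx, beside 7.54%. In pericytes 1 of 16 was lower, Eya4, beside 3.54%, and 0 were higher, beside 4.12%.

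A list of 78 other hereditary deafness genes was taken through the same comparison. Of its 74 genes with 10 or more epithelial UMIs 1 was higher in the mutant by 2-fold or more, beside 2.5% of all genes, and 16 were lower, beside 5.88%, with a median log2 ratio of −0.03. Without hair cell-like barcodes 2 of 71 were higher and 10 lower, beside 2.48% and 5.7% of all genes, and without mixed barcodes as well 11 of 61 were higher and 9 lower, beside 6.2% and 5.51%. The lowest were Lhfpl5, a channel partner, at 27.8 and 0.637 CPM, and Pou4f3, the hair cell transcription factor, at 36.3 and 1.33 CPM. Grxcr1, a regulator of bundle growth, followed at 22.8 and 0.743 CPM. Pou3f4, a transcription factor of the otic mesenchyme, stood at 69.1 and 6.90 CPM and Coch, or cochlin, of that mesenchyme, at 40.1 and 3.77 CPM. Both of these are markers of the mesenchyme list given above. The highest were Ripor2 at 2.19 and 5.73 CPM, Eya1 at 161 and 316 CPM, Chd7 at 122 and 229 CPM, Otog at 86.8 and 158 CPM and Tecta, a component of the tectorial membrane, at 474 and 818 CPM.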

How the data were processed

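Cochleae of both genotypes at E16.5 were digested to single cells and sequenced on the 10X Chromium 3′ system, per the labels' protocols, which name kit v3.1 for both libraries where 1 label of the mutant library names v3.2. The deposited values are raw UMI counts per gene and barcode. The authors made these counts with Cell Ranger 6.0.0 on mm10, per the submitters' processing notes, but the mutant count file's header names version 5.0.1. For reads that match several genes, the treatment was not given in the sources used here. In counts per barcode the mutant library's lowest barcode has 500 UMIs and the wild-type one's 3352, so the barcodes were called or filtered unlike, and 4705 mutant barcodes lie below the wild-type minimum. The totals were 61130806 and 100135532 UMIs.

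Barcodes with at least 1000 UMIs, 500 genes and at most 10% mitochondrial UMIs were kept (6440 and 9373). Scrublet called 0 doublets in each library, so the top-scored 0.8% per 1000 barcodes were removed (332 and 703). Clustering of the merged libraries used scanpy 1.11.5 (2000 variable genes, 30 components, 15 neighbours, Leiden resolution 1, seed 0), with the 39 genes left out, and epithelial barcodes were clustered again. A cluster was named from at least 3 markers at 10 CPM. It stayed unnamed where markers of another class led or tied among its top 10 genes, or where it was shallow (median under 0.333 of its library's) with none of its own markers leading. The rule for ties was set after the clusters were seen.

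UMIs were summed per type and turned into CPM, with exact Poisson 95% intervals. The ratio between genotypes had 1 CPM added on the log2 scale, and its interval came from the exact Clopper-Pearson interval of the mutant share of a gene's UMIs. At least 10 UMIs were required of a gene and 30 barcodes of a type. Barcodes were thinned to 2000 UMIs without replacement. All 1402 wild-type and 1129 of 1344 mutant epithelial barcodes were deep enough for that, and in mesenchyme all 3444 wild-type and 5140 of 5669 mutant ones. Full values are given for separated genes and for genes with 30 or more epithelial UMIs that were 2-fold apart, and of the list of other deafness genes the 5 highest and 5 lowest are named. Interval code was tested on simulated data. The genes, lists and rules were chosen with earlier results of these data known. Coordinates are from GENCODE vM21 (GRCm38).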

Additional observations from a re-analysis of the deposited data

Results flagged for a closer look

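Opposite directions in the epithelium and in mesenchyme, with ratio intervals that left out 1 on both sides, were seen for 3 genes, and the difference was not tested. The log2 ratio of mutant over wild type was 0.60 for Grhl2 in the epithelium and −0.48 in mesenchyme, where it had 28 and 22 UMIs. For Esrp1 it was 0.75 in the epithelium and −0.42 in mesenchyme, on 39 and 40 UMIs. Both genes are used by epithelial cells, and Epcam, another such gene, stood at 18.8 CPM in wild-type and 11.2 CPM in mutant mesenchyme. For Ccdc50 the values were 0.12 and −0.21.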

How the results depend on the processing

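No paired analysis was possible because each genotype has 1 library. With 5 CPM added in place of 1, 0 genes were higher in the mutant epithelium by 2-fold or more and 2 were lower, and larger additions shrink the ratios of low genes by construction. Without hair cell-like barcodes 2 were lower. Without hair cell-like and mixed barcodes together 4 were higher and 1 was lower, and the log2 ratios of Otof and Smpx turned to 0.22 and 1.69, on 0 and 3 wild-type UMIs. Those settings were chosen after seeing the data. Under the other settings 1 gene was higher and 4 to 8 were lower. With doublet-scored barcodes kept, the mesenchymal median log2 ratio was −0.14 in place of −0.04, and the cause was not tested. Over the alternatives run for wild type, 8 to 14 genes were highest in hair cell-like barcodes and 20 to 24 in any epithelial type, and other types were not counted in each alternative. Depth limited Strc, Ush1g, Ptprq, Loxhd1, Gipc3, Tmc1 and Slc17a8 most, each with under 50 epithelial UMIs over both libraries, and with at least 50 UMIs required Tmc1 was no longer among the lower genes, of which 5 were left.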
